A study of Rattus norvegicus with 4 samples.

Results

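Elastic fibre and microfibril transcripts were described in Sprague Dawley rat ear skin, taken from the injected sites on day 3 after an adeno-associated virus (AAV) had been given. AAV is a vector virus that brings genes into cells without itself spreading. The 10 genes were taken by name from a table of 54532 genes, and they are Eln, Fbn1, Fbn2, Fbln1, Fbln5, Efemp2, Mfap5, Emilin1, Lox and Ltbp4. One ear of each of 2 rats was labelled wt and received control virus, and the other ear was labelled Fgf7 overexpression and received AAV-Fgf7, a virus made to express fibroblast growth factor 7. Each group thus held 2 RNA-seq libraries, 1 from each rat. The rat of each AAV-Fgf7 library was taken from its column number and title, because both descriptions name the same column. Comparisons within a rat rest on this assignment. Neither the age of the rats nor the promoter of the viral construct is stated in the sources used here. The question behind the comparison was how the skin transcriptome responds to added Fgf7, in a study of wound healing.

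An elastic fibre has a core of elastin and a sheath of microfibrils, and it gives skin, vessel walls and the elastic cartilage of the ear their recoil. Fibroblasts, smooth muscle cells and chondrocytes secrete soluble tropoelastin, which fibulins and latent TGF-beta binding proteins guide onto a fibrillin scaffold, where lysyl oxidases crosslink it. Inherited loss of fibulin-4, fibulin-5 or LTBP4 is known to cause cutis laxa, a disease of slack skin, and mutations of fibrillin-1 cause Marfan syndrome. FGF7 is made by mesenchymal cells and acts on epithelial cells, whereas the genes described here are mostly products of the connective tissue.

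Libraries held 1299136 to 1601321 counts, and 12902 genes had a count, of which the filter on low counts kept 6370. Fgf7 itself was counted 94 times in the control ear of rat 1 and 110 times in that of rat 2, against 454 and 1429 times after AAV-Fgf7. The table lists these rat reads by mouse gene, and the sources used here do not say how reads were assigned, so a gene may have been counted in part. Dcn, Lum and Dpt, which dermal fibroblasts are known to express, are listed at 0 in all libraries, and a 0 in this table therefore does not show that a transcript was absent. The control library of rat 2 stood apart in its summed level of skeletal muscle markers, 61973 CPM against 14969 to 32672 CPM in the others. Fold changes of members that rest on it are given with and without it. So are the medians of the members and of all other pathway genes together. Single pathway lists and their genes are given only with it. Levels below are CPM (counts per 1e6 of a TMM-scaled library), and levels of different genes are compared only by the authors' FPKM, which divides by the length of the gene model. Fewer cells of a type and less RNA per cell cannot be told apart in bulk tissue.

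No member passed the edgeR test. Efemp2 and Fbln5 had lower levels in both AAV-Fgf7 libraries than in both controls. Eln and Ltbp4, the most abundant members, were highest in the control ear of rat 2 and lowest in the AAV-Fgf7 ear of the same rat, and their groups overlapped. Fbln1 and Emilin1 followed neither pattern, and Mfap5 had no count. Of the 10 members, 9 had a count and 8 were tested, and 0 of these had an adjusted p under 0.05 in edgeR, where 0.00% of all tested genes did (0 of 6370). At an unadjusted threshold of 0.05, 0 members passed against 2.32% of all tested genes (148). Efemp2 passed that unadjusted threshold with RLE factors, without the low-count filter and in the 3 fits to FPKM. In these fits 2.28% to 3.22% of all genes passed it. Eln passed it with a crossed replicate block (AAV-Fgf7 libraries exchanged between rats), where 4.73% of all genes did. No other member passed it in a fit to all libraries. Fits with a library left out are not covered by this list, because they leave a group with a lone library. For Eln and Ltbp4 their log2 fold changes are given below. DESeq2 also called 0 members, and 0.0628% of all tested genes (4).

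The bases before the start of 4 members are shown because they cover members of both kinds with TMM factors. The groups of Efemp2 and Fbln5 did not overlap, and those of Ltbp4 and Fbn1 did. For Fbn1 the overlap was lost with RLE factors or library totals. Each run holds the 250 bases before the RefSeq gene start in the rat assembly GRCr8, read 5′ to 3′ on the strand of the gene. They lie at chr1:212211472-212211721 on the plus strand for Efemp2, and on the minus strand at chr6:126742707-126742956 for Fbln5, chr1:91759808-91760057 for Ltbp4 and chr3:133203391-133203640 for Fbn1. Capitals mark matches on either strand to GGGCGG, the GC box known to bind Sp1, and to the CCAAT box; TATAAA, the TATA box, was also searched.
Efemp2: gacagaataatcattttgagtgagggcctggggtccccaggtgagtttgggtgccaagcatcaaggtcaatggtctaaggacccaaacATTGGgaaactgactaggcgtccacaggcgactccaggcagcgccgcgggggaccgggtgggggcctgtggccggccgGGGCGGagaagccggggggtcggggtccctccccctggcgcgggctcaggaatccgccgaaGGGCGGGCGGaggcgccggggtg
Fbln5: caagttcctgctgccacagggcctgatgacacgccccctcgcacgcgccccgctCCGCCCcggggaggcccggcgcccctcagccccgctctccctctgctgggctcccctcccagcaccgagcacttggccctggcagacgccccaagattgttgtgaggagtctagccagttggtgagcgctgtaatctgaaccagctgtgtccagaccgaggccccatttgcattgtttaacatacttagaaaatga
Ltbp4: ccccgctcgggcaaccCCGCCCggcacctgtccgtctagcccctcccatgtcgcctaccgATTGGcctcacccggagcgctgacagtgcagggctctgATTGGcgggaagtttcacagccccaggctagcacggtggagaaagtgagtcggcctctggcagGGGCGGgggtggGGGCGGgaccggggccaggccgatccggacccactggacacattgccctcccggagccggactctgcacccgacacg
Fbn1: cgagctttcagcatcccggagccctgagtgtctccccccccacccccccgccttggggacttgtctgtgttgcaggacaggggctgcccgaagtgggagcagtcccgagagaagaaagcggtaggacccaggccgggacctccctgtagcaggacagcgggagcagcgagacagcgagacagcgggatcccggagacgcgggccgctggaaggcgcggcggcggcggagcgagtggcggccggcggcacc

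Efemp2 held 3 GC box matches, 2 of them overlapping, and 1 CCAAT match. Ltbp4 held 3 GC box and 2 CCAAT matches. Fbln5 held 1 GC box match and no CCAAT match, and Fbn1 held neither. None of the 4 windows held TATAAA. Among all 33469 RefSeq promoters of this length, 30.5% held the GC box, 34.0% CCAAT and 12.9% TATAAA. The windows were rich in G and C, at 68% for Efemp2, 63.2% for Fbln5, 70.4% for Ltbp4 and 71.2% for Fbn1, against a median of 51.2% over all promoters. A match describes letters only and does not show that a factor binds there. The table of promoters held 6 of the 10 members, and those without an entry were Eln, Fbln1, Emilin1 and Lox.

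Per length of gene model, elastin and LTBP4 transcripts were the most abundant members. Mean FPKM over the 4 libraries was 82.1 ± 35.9 for Eln and 79.5 ± 22.1 for Ltbp4 (SD, n = 4 libraries of both groups), and their ranges overlapped. The fibulin gene Fbln1 at 22.5 ± 3.86 and the fibrillin gene Fbn1 at 18.9 ± 2.42 FPKM came next, with ranges that overlapped each other and lay below all values of Ltbp4. Efemp2 at 5.01 ± 2.19 and Fbln5 at 3.29 ± 0.617 FPKM also overlapped each other. Lox at 1.46 ± 0.490, Fbn2 at 0.809 ± 0.329 and Emilin1 at 0.684 ± 0.486 FPKM were the lowest with a count, and each overlapped its neighbour in the order. The order is that of mouse gene models, and a gene that lost more rat reads would rank too low.

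**Figure D1:**
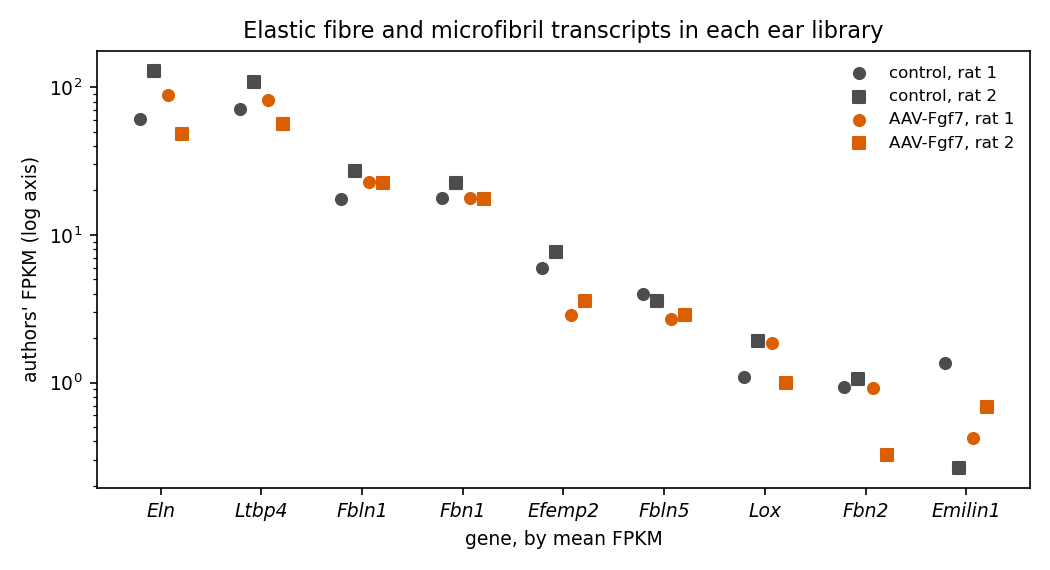
Authors' FPKM (log axis) of the 9 members with a count, ordered by mean, with 1 point per library (grey, control virus; orange, AAV-Fgf7; circles, rat 1; squares, rat 2). Eln runs from 48.5 to 130 FPKM with the groups mixed, while both orange points of Efemp2 and of Fbln5 lie below both grey points.

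Eln encodes tropoelastin, the soluble precursor of the elastic core. It is listed as ENSMUSG00000029675; its model of 8098 bases lies on mouse chromosome 5, minus strand, 134702593 to 134747323. Under control virus rat 1 had 664 counts and rat 2 had 1606, and under AAV-Fgf7 they had 1044 and 578. Both the highest and the lowest library therefore came from rat 2, and the AAV-Fgf7 values lay on either side of the lower control. In CPM the control ears stood at 499 and 1058, a ratio of 2.12 between ears of different rats that both had control virus, and the AAV-Fgf7 ears at 729 and 396. Group means were 778 ± 395 and 563 ± 236 CPM (SD, n = 2), and the fitted log2 difference was -0.47 (SE 0.43, 95% interval -1.52 to 0.59, edgeR adjusted p = 0.9996). The AAV-Fgf7 ear of rat 1 had 1.46 times the level of its control ear, and that of rat 2 had 0.374 times. With the control of rat 2 left out the log2 fold change was 0.18, and with the control of rat 1 left out -0.91, so that 1 control library set its sign.

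Fbn1 encodes fibrillin-1, the main rod of adult microfibrils, and it was the steadiest member. It had 288 (rat 1) and 418 (rat 2) counts under control virus, and 311 and 314 under AAV-Fgf7. In CPM, 3 of the 4 libraries lay between 215 and 217, and only the control ear of rat 2 stood apart at 275. The log2 fold change was -0.19 (SE 0.21, 95% interval -0.69 to 0.32, edgeR adjusted p = 0.9996), and it was 0.0032 without the control library of rat 2. Fbn2 encodes fibrillin-2, which is made mostly during development and repair. Its counts were 13 and 17 in controls and 14 and 5 in AAV-Fgf7 ears. Its one low library was the AAV-Fgf7 ear of rat 2, where a count of 5 has an exact Poisson 95% interval of 1.62 to 11.7, while the counts of the others had intervals from 6.92 to 27.2. These intervals cover counting error only. The log2 fold change of Fbn2 was -0.66 (SE 0.63), and -0.10 without that library. The ratio of Fbn1 to Fbn2 in FPKM was 19.1 and 21.2 in controls and 19.2 and 54.3 in AAV-Fgf7 ears.

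Mfap5 encodes a small glycoprotein (MAGP-2) that decorates microfibrils. It is listed at 0 in all 4 libraries. By counting error alone a 0 was taken to allow up to 3 counts per library, or 1.98 to 2.25 CPM. The exact Poisson 95% interval used for other genes reaches 3.69 counts. Neither limit covers reads lost when rat reads were assigned to mouse genes. Mfap2, which encodes the related MAGP-1, had a single count in each of 3 libraries and 0 in the AAV-Fgf7 ear of rat 2. No fold was given for either gene.

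Ltbp4 encodes latent TGF-beta binding protein 4, which holds latent TGF-beta in the matrix and carries elastin with fibulin-5 onto microfibrils. It is listed as ENSMUSG00000040488; its model of 6463 bases lies on mouse chromosome 7, minus strand, 27305136 to 27337692. Control libraries held 619 and 1076 counts for rats 1 and 2, and AAV-Fgf7 libraries 762 and 535. The libraries stood in the same order as for Eln, with the control ear of rat 2 highest and the AAV-Fgf7 ear of rat 2 lowest. Group means were 587 ± 172 and 449 ± 118 CPM (SD, n = 2), which the model gave as -0.39 in log2 (SE 0.29, 95% interval -1.09 to 0.32, edgeR adjusted p = 0.9996). It was -0.04 without the control library of rat 2 and -0.14 without the AAV-Fgf7 library of rat 2, against -0.66 and -0.68 without the other control and AAV-Fgf7 library. The ratio of Eln to Ltbp4 in FPKM lay between 0.856 and 1.19 in all 4 libraries, a narrower spread than that of either gene.

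Efemp2 encodes fibulin-4, which bridges lysyl oxidase to tropoelastin and is needed to build elastic fibres. It is listed as ENSMUSG00000024909; its model of 2648 bases lies on mouse chromosome 19, plus strand, 5473973 to 5481853. Rat 1 had 21 counts under control virus and 11 under AAV-Fgf7, and rat 2 had 31 and 14. Both AAV-Fgf7 libraries lay below both controls. As the libraries were assigned, the ratio between the ears was alike in the 2 rats, at 0.487 and 0.469. With the AAV-Fgf7 libraries exchanged between rats, 7.69 would stand against 20.4 CPM and 9.58 against 15.8 CPM, so the likeness rests on the assignment. Group means were 18.1 ± 3.28 and 8.63 ± 1.34 CPM (SD, n = 2). The log2 fold change of -1.06 (SE 0.44) had a 95% interval of -2.12 to 0.00063 and an edgeR adjusted p = 0.9996. It was the largest difference and the lowest p among the tested members (unadjusted p = 0.0501 in edgeR, against an exact permutation minimum of 0.333 for a single gene with 2 libraries per group). The log2 fold change ranged from -1.23 to -0.86 over 13 alternative settings. These reuse the same libraries, and with groups that do not overlap a negative sign in each is no further evidence. In fits to all libraries the unadjusted p of Efemp2, which is not from an exact test, ran from 0.0233 (limma on FPKM) to 0.146 (DESeq2). The counts are few, and an exact Poisson 95% interval on a count of 11 runs from 5.49 to 19.7 and on one of 21 from 13.0 to 32.1.

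Fbln5 encodes fibulin-5, which binds tropoelastin and cell-surface integrins and sets elastin down on microfibrils. Rat 1 had 37 counts under control virus and 27 under AAV-Fgf7, and rat 2 had 38 and 29. Both AAV-Fgf7 libraries lay below both controls, at 2.70 and 2.85 FPKM where the lower control had 3.59 FPKM. Group means were 26.4 ± 1.97 and 19.4 ± 0.694 CPM (SD, n = 2), with a fitted log2 difference of -0.44 (SE 0.34, 95% interval -1.27 to 0.38, edgeR adjusted p = 0.9996). Over the 13 alternative settings, which reuse the same libraries, it ranged from -0.52 to -0.35. An exact Poisson 95% interval on a count of 37 runs from 26.1 to 51.0 and on one of 27 from 17.8 to 39.3. These intervals overlap. Fbln1 encodes fibulin-1, a protein of the elastic core and of basement membranes. The controls had 103 and 181 counts and the AAV-Fgf7 libraries 144 and 145, so that both AAV-Fgf7 libraries lay between the controls. Its log2 fold change was 0.02 (SE 0.28), and it was 0.37 without the control of rat 2 and -0.25 without the control of rat 1.

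Emilin1 encodes a glycoprotein at the border of elastin and microfibrils. Its counts of 9 and 2 in controls and 3 and 5 in AAV-Fgf7 ears did not pass the low-count filter, and the groups overlapped. Lox encodes lysyl oxidase, which oxidises lysines of elastin and collagen so that they crosslink. The controls had 7 and 14 counts and the AAV-Fgf7 libraries 13 and 7. Each group held 1 low and 1 high library, and the log2 fold change was -0.07 (SE 0.62, 95% interval -1.59 to 1.44). It was 0.40 without the control of rat 2 and 0.32 without the AAV-Fgf7 library of rat 2.

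Read as a list, 2 of the 8 tested members lay lower in both AAV-Fgf7 libraries than in both controls, and 0 lay higher. Over all tested genes these shares were 13.3% lower (850) and 14.8% higher (942). The same 2 members were lower in the AAV-Fgf7 ear of both rats, against 20.0% of all tested genes (1272). With RLE factors or library totals in place of TMM both counts became 4, since the values of Fbn1 and Fbn2 in the ears of rat 1 nearly tie (216 against 217 and 9.77 against 9.78 CPM). The shares of all tested genes were computed with TMM only, so these counts of 4 have no share beside them. The median log2 fold change of the tested members was -0.41, and that of all tested genes was -0.02. Within rats the median log2 ratio of the members was 0.10 in rat 1 and -0.86 in rat 2, against 0.0017 and 0.0096 over all tested genes. The negative median thus rested on rat 2 as the libraries were assigned. The median was -0.02 without the control library of rat 2 and -0.12 without the AAV-Fgf7 library of rat 2. With the AAV-Fgf7 libraries exchanged between rats, Eln would be lower than control in both pairs (729 against 1058 and 396 against 499 CPM). Ltbp4 would be too (532 against 709 and 366 against 465 CPM). Fbln1 alone of the tested members would not (101 against 119 and 99.2 against 77.4 CPM). Some of the others nearly tie, as Lox (7 against 7 and 13 against 14 counts) and Fbn1 (215 against 216 CPM in 1 pair). The share of all tested genes that would be lower in both exchanged pairs was not computed.

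**Figure D2:**
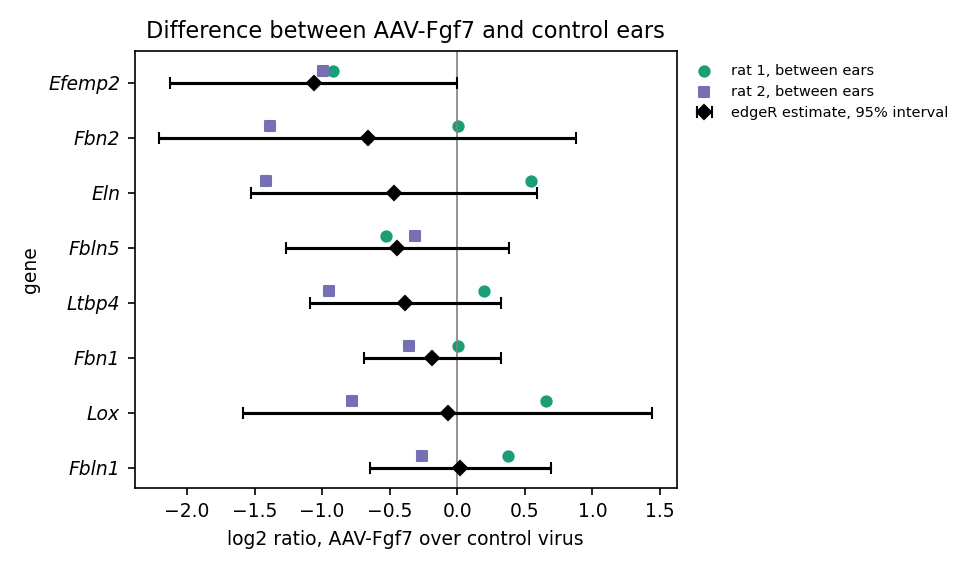
Log2 ratio of AAV-Fgf7 over control virus for the 8 tested members (diamonds with bars, edgeR estimate and 95% interval; green circles, between the ears of rat 1; violet squares, between the ears of rat 2). As the libraries were assigned to rats, the ears of the 2 rats give nearly the same ratio for Efemp2 (-0.92 and -0.99), whereas Eln has 0.55 in rat 1 and -1.42 in rat 2.

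Other genes of the pathway were read from 5 lists of 70 genes in all, and 68 of their symbols were found and 35 genes tested. None passed edgeR or DESeq2 at an adjusted p under 0.05 (0 called in either direction), and 0 passed at an unadjusted 0.05 in edgeR. Of the 35, 29 had a negative log2 fold change, with a median of -0.28, while 3328 of all 6370 did. Most of this came from rat 2: within rat 1, 19 of the 35 had a negative log2 ratio (median -0.03), and within rat 2, 29 did (median -0.53). Without the control library of rat 2 the count was 25 and the median -0.14, and without its AAV-Fgf7 library they were 21 and -0.08. Both AAV-Fgf7 libraries lay below both controls for 10 of them and above for 0, against 13.3% and 14.8% of all tested genes. Many of the genes are made by the same connective tissue cells, so they are not independent observations.

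Among other assembly genes, 13 of 24 were tested and 12 had a negative log2 fold change (median -0.38), while the median log2 ratio was 0.26 within rat 1 and -0.85 within rat 2. Ltbp1, which encodes a latent TGF-beta binding protein on fibrillin microfibrils, had 46 and 75 counts under control virus and 41 and 39 under AAV-Fgf7 (log2 fold change -0.60, SE 0.33). Mfap4, a microfibril-associated glycoprotein gene, stood at -0.39 (SE 0.34), and its groups also did not overlap. Adamts6, a metalloprotease gene, stood at -0.79 (SE 0.59). Vcan, which encodes the proteoglycan versican that binds fibrillin, stood at -0.43 (SE 0.43), with the control ear of rat 1 highest at 279 counts against 124, 153 and 159 in the others. Efemp1, which encodes fibulin-3, was the single one above 0, at 0.08.

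In the crosslinking list 8 of 10 genes were tested, with a median log2 fold change of -0.24 (0.07 within rat 1 and -0.47 within rat 2). Loxl1, the lysyl oxidase-like enzyme most tied to elastic fibres, had 435 and 558 counts under control virus, 512 and 341 under AAV-Fgf7, and a log2 fold change of -0.23 (SE 0.25). Per length, Loxl1 lay between 70.2 and 111 FPKM and Lox between 0.988 and 1.90 FPKM. Loxl3 stood at -0.35 (SE 0.35), and Tll1 and Bmp1, proteases of the family that activates lysyl oxidase, at -0.74 (SE 0.45) and -0.25 (SE 0.26). Tll1 counts were 19 and 19 against 11 and 12, so its groups did not overlap.

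Elastases and their inhibitors had 6 tested genes of 19, all with negative log2 fold changes between -0.50 and -0.28. The AAV-Fgf7 values of 5 lay below both controls, as did 13.3% of all tested genes. The median log2 ratio of the 6 was -0.08 within rat 1 and -0.58 within rat 2, and that of Timp2 was -0.03 within rat 1. Mmp2, a gelatinase gene whose product also cuts elastin, had 555 and 710 counts under control virus and 533 and 462 under AAV-Fgf7 (log2 fold change -0.36, SE 0.19), and Mmp14, which activates it, stood at -0.28 (SE 0.21). The cathepsin inhibitor gene Cst3 stood at -0.50 (SE 0.25) and the metalloprotease inhibitor gene Timp2 at -0.31 (SE 0.21). Mmp9, Mmp12, Mmp7, Elane and Timp1, genes of inducible or leukocyte elastases and of an inhibitor, are listed at 0 in all libraries.

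Receptor and integrin genes had fitted log2 fold changes close to 0. Of 9 such genes 5 were tested, with log2 fold changes from -0.22 for Itga5 to 0.11 for Itgb5. Itgb1, the common beta chain of matrix integrins, stood at -0.17 (SE 0.19) and Itgav at -0.09 (SE 0.34). Neu1 stood at 0.01 (SE 0.63), with 70 and 19 counts under control virus and 47 and 47 under AAV-Fgf7. The median log2 ratio of the list was -0.15 within rat 1 and -0.26 within rat 2. Of the cutis laxa genes of vesicle transport and proline synthesis 3 were tested. The Rab5 regulator gene Rin2 stood at 0.05 (SE 0.26), the proton pump gene Atp6v1a at 0.03 (SE 0.35) and the proline synthesis gene Aldh18a1 at -0.42 (SE 0.60).

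**Figure D3:**
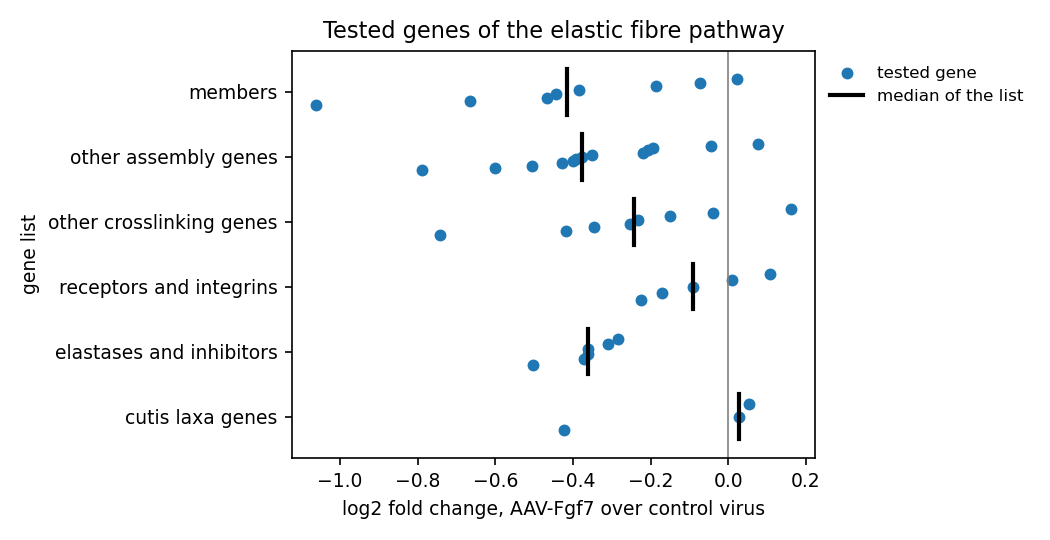
Log2 fold changes (AAV-Fgf7 over control virus) of the tested genes of the members and of 5 other lists of the elastic fibre pathway, with 1 point per gene and a bar at the median of each list. Medians run from -0.41 for the members to 0.03 for the cutis laxa genes, and no point passed the test.

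The order of libraries seen for Eln (control ear of rat 2, AAV-Fgf7 ear of rat 1, control ear of rat 1, AAV-Fgf7 ear of rat 2) was shared by 4 of the 7 other tested members, namely Fbn1, Fbn2, Lox and Ltbp4, and by 7.55% of all tested genes (481). It was shared by 2 of them with RLE factors (Lox and Ltbp4) and by 1 with library totals (Ltbp4). The order was chosen after the values of Eln were seen. Markers of other tissues of the ear also differed between the libraries. The cartilage list (12 of 16 markers with a count) summed to 667 CPM in the control of rat 1 and 2219 CPM in that of rat 2, and to 1184 and 683 CPM after AAV-Fgf7. Its defining genes Col2a1 and Acan were counted in every library, with 45 and 633 against 222 and 31 counts of Col2a1, while Matn1, Chad, Cnmd and Snorc are listed at 0. Skeletal muscle markers (16 of 18 with a count, Casq1 and Tnnc2 at 0) summed to 14969 and 61973 CPM in controls and 32672 and 15839 CPM in AAV-Fgf7 ears. Eln, cartilage and muscle were thus all highest in the control ear of rat 2 and second in the AAV-Fgf7 ear of rat 1. The lowest library differed, being the control ear of rat 1 for both lists and the AAV-Fgf7 ear of rat 2 for Eln. Smooth muscle and pericyte markers, and adipocyte markers (287 and 564 against 352 and 339 CPM), had the same highest and second library. Most of the smooth muscle and pericyte sum was Des alone, and the order of that list without Des was not computed. The part of these tissues in the levels of Eln and Ltbp4 was not tested.

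Dermal fibroblast markers (11 of 16 with a count) summed to 38238 and 43735 CPM in controls and 44432 and 30619 CPM in AAV-Fgf7 ears, and Col6a1, Dcn, Dpt, Lum and Twist2 are listed at 0. Smooth muscle and pericyte markers (11 of 12 with a count, Tagln at 0) summed to 788 and 1947 against 1155 and 1137 CPM, and endothelial markers (9 of 10, Emcn at 0) to 159 and 200 against 159 and 161 CPM. The groups of these 3 lists overlapped. Col1a1 made up most of each fibroblast sum. Des (463 and 1411 against 719 and 698 CPM) made up most of each smooth muscle and pericyte sum. Basal keratinocyte markers (9 of 9 with a count) summed to 909 and 994 CPM in controls and to 1643 and 3219 CPM in AAV-Fgf7 ears, with Krt14, Krt5 and Sfn making up most of each sum. Both AAV-Fgf7 libraries lay above both controls for Krt14, Krt5, Sfn and Trp63, and the groups overlapped for Itga6, Itgb4, Lamb3, Dst and Col17a1. Hair follicle markers (14 of 18 with a count) ran from 88.7 CPM in the control ear of rat 1 to 4710 CPM in the AAV-Fgf7 ear of rat 1, with overlapping groups. The basal keratinocyte sums moved against Efemp2 and Fbln5, and their part in the lower levels of those genes was not tested.

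**Figure D4:**
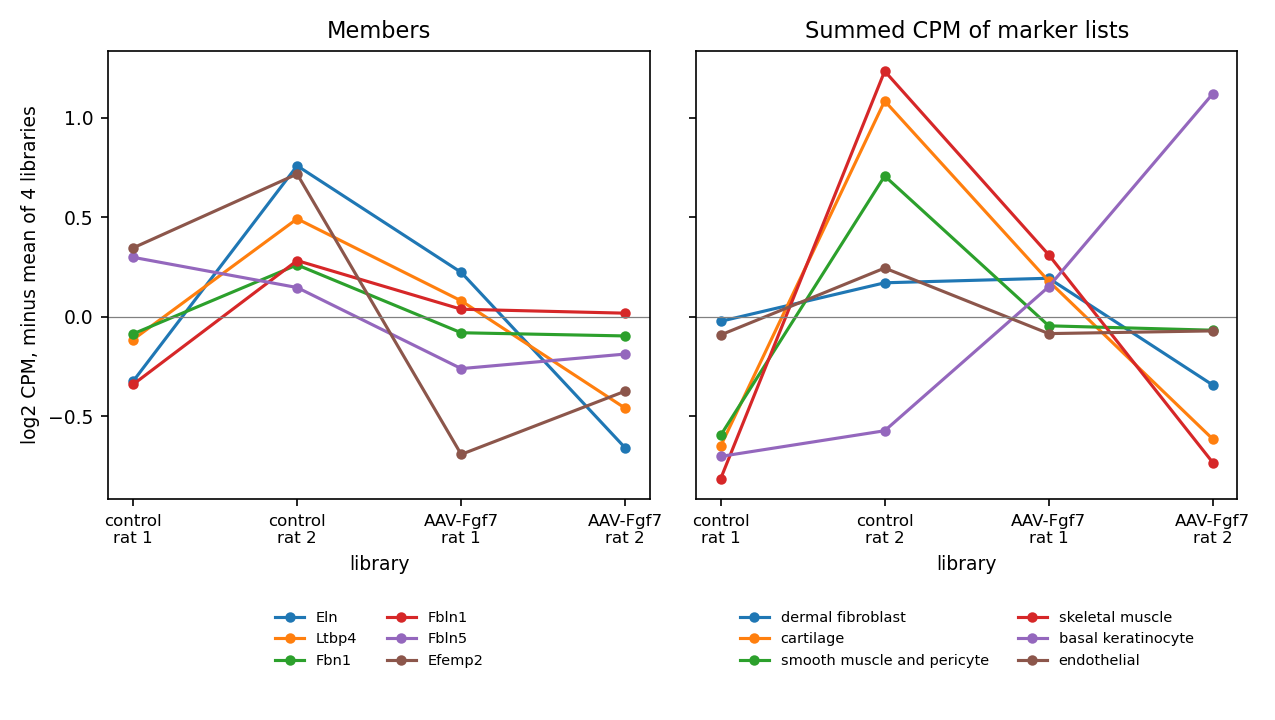
Log2 CPM of 6 members (left) and of the summed CPM of 6 marker lists (right) in each library, minus the mean of the 4 libraries; lines join the libraries only to mark each gene or list. Eln and Ltbp4 peak in the control ear of rat 2, as do cartilage (2219 CPM) and skeletal muscle (61973 CPM), while Efemp2 and Fbln5 are lower in both AAV-Fgf7 ears.

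Eln was also the tested member with the widest range of log2 CPM, at 1.42. The genes whose centred log2 CPM profile lay closest to its own over the 4 libraries, among 6369 others, were Shisa4 (root mean square difference 0.045), Klhl29 (0.053), Fzd4 (0.054) and Fmod (0.056). Fmod encodes fibromodulin, a proteoglycan that binds collagen, and it had 105 and 233 counts under control virus and 160 and 83 under AAV-Fgf7. Fzd4 encodes a Wnt receptor, with counts of 121 and 289 against 177 and 108. With 4 libraries these are descriptions of likeness and carry no test.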

How the data were processed

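Raw counts per gene, as deposited, were whole numbers with library totals of 1299136 to 1601321. The FPKM values of the authors equalled the count divided by gene model length and by a scaled library total (largest relative difference 5.1e-15), and they were used for levels between genes and in 3 alternative fits. The group means that the authors give beside the FPKM values (2 columns) were not used. The submitters' processing notes name Rnor_6.0 (rn6) as build, yet gene identifiers, chromosomes and coordinates in both tables are those of mouse. A mouse build, an aligner, a counter and the use of strand are all not given in the sources used here. Genes listed as overlapping a member (2) had no counts.

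Titles and design text disagree on which ear had which virus, so side was not used. Both AAV-Fgf7 descriptions name the same column, and the column numbered 2 was taken as rat 2 from the title of that sample.

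Genes were filtered with filterByExpr and compared in edgeR 4.0.16 (R 4.3.3) with TMM factors and the two-sided quasi-likelihood test of AAV-Fgf7 against control. P-values were adjusted by Benjamini-Hochberg over 6370 genes at a threshold of 0.05. Standard errors were obtained as log2 fold change divided by the square root of F, and 95% intervals use the degrees of freedom of that test. Within-rat ratios use log2 CPM with a prior count of 2. The fitting script was tested on simulated data. The members and lists were chosen with earlier results of these data known. The rule for named genes took every member, up to 4 tested genes of lowest p from each other list, and the 5 nearest profiles to Eln, which was also the member of widest range; the fifth of these is not reported here. Genes named beyond it, such as those listed at 0, Col2a1, Acan, Mfap2, Efemp1 and Neu1, were chosen after their values were seen. The ears of a rat share an animal, so rat number pairs the libraries; their deviations from group means correlated at r = -0.30 across genes. The libraries of a group came from different rats, and with 2 per group p-values rest on a spread estimated across genes. Alternatives were RLE factors, no low-count filter, DESeq2 1.42.0, the replicate block, each library left out, and limma 3.58.1 on log2(FPKM + 1) with and without the filter and on log2(FPKM + 0.1); such FPKM folds are understated for low genes.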

Additional observations from a re-analysis of the deposited data

How the results depend on the processing

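No member and no other pathway gene was called under any of the 13 alternatives. Over all genes the edgeR count of 0 became 3 without the low-count filter and 4 with DESeq2, and it ran from 0 to 59 when a library was left out (59 without the control of rat 1, 40 without that of rat 2, 0 without either AAV-Fgf7 library), in fits where a lone library is assumed to vary like the other group. The cause was not tested. With rat as a replicate block 0 genes were called and the median log2 fold change of the members was -0.41, and the block changed no call. The crossed replicate block exchanges the rats of the AAV-Fgf7 libraries, and like library totals it was chosen after seeing the data. It also called 0, and the log2 fold change of Eln there was -0.44 (SE 0.16). The recounts of other pathway genes by rat and library, and of library orders by scaling, were added after seeing the data.

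Of 104 member values under the alternatives, 99 kept the sign of their log2 fold change and 5 did not. The alternatives reuse the same libraries, so these values are not independent. When a library was left out, the log2 fold change of Eln ran from -0.98 to 0.18, that of Fbn1 from -0.35 to 0.0032, that of Fbln1 from -0.25 to 0.37 and that of Lox from -0.60 to 0.40. The reversed values of Lox were 0.40 without the control of rat 2 and 0.32 with the AAV-Fgf7 library of rat 2 left out. The numbers of members lower in both AAV-Fgf7 libraries, and in both rats, were 4 with RLE factors and 4 with library totals, against 2 with TMM. The matching shares of all tested genes were computed with TMM only. Counts of 2 to 38 per library limit what can be said of Emilin1, Lox, Fbn2, Efemp2 and Fbln5.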
